A study of Mus musculus with 165 samples.

Results

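Zeb2 and Zeb1, the inhibitors of DNA binding Id1, Id2 and Id3, and the E-proteins Tcf3 (E2A), Tcf4 (E2-2) and Tcf12 (HEB) were followed by RNA-Seq in PUER cells. The members were the 8 genes with these symbols, out of the 36255 genes of the table, and all 8 were found in it. PUER cells are a mouse myeloid progenitor line labelled Spi1-/-, that is, without the gene for the transcription factor (TF) PU.1. The line carries instead a transgene of PU.1 joined to the hormone-binding part of the estrogen receptor, which 4-hydroxy-tamoxifen (OHT) switches on, and this genotype is shared by every group, the controls included. Undifferentiated cells grew in IL3 at 5 ng/ml without OHT (3 libraries). In IL3 conditions, which lead toward macrophages, 200 nM OHT was added to such cells, and 81 libraries were made at 27 time points from 1h to 168h (IL3-OHT). In GCSF conditions, which lead toward neutrophils, cells were first kept for 48 h in GCSF at 10 ng/ml without IL3 (GCSF 0h, 3 libraries), and 100 nM OHT was then added (GCSF-OHT, 78 libraries at the same 27 time points). The titles of the GCSF 0h samples name OHT, but their treatment label gives only the change of cytokine and the study places them before OHT, so they were read as without OHT, and each value against GCSF 0h rests on this reading. The cytokine, the pre-treatment and the OHT dose thus differ together between the conditions and cannot be told apart. No time-matched cells without OHT were sampled, and part of the medium was renewed, with fresh OHT, 40 h, 88 h and again 136 h into each course. Each time point came from a plate of its own, and cells taken after 24h were detached with trypsin.

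E-proteins are basic helix-loop-helix (HLH) TFs that bind the E-box, the sequence CANNTG, as dimers with one another or with tissue-specific HLH partners. Id proteins have the HLH dimerization domain but no DNA-binding region, so that an Id bound to an E-protein keeps it off DNA. In blood cells E-proteins are best known for driving lymphoid genes and restraining division, and Id2 is known for its role in innate lymphoid and dendritic cells. *Tcf4* here is the E-protein E2-2, a regulator of plasmacytoid dendritic cells, and not the Wnt effector TCF7L2 that once had the same name. Zeb1 and Zeb2 are zinc-finger homeodomain repressors of a subset of E-boxes, CAGGTG or its complement CACCTG, and are best known for repressing epithelial genes. Zeb2 is needed for normal blood formation and for the monocyte and plasmacytoid dendritic lineages.

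In GRCm38 (GENCODE M21) *Zeb2* (ENSMUSG00000026872) lies on the minus strand of chromosome 2 from 44983632 to 45117395. *Id1* (ENSMUSG00000042745) lies on chromosome 2 from 152736251 to 152737410, *Id2* (ENSMUSG00000020644) on chromosome 12 from 25093799 to 25097140 and *Id3* (ENSMUSG00000007872) on chromosome 4 from 136143497 to 136145755. *Tcf3* (ENSMUSG00000020167) lies on chromosome 10 from 80409514 to 80433647 and *Tcf12* (ENSMUSG00000032228) on chromosome 9 from 71842688 to 72111871. The positions of *Zeb1* and *Tcf4* are given with their values. The antisense gene *Zeb2os* shares 1216 exon bases with *Zeb2*, and *Gm10125* a shorter stretch with *Zeb1*. Neither antisense gene has a row among those used here, and whether counting used strand is not given in the sources used here, so reads from these stretches cannot be told apart.

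Promoters are shown of 3 of the members called at 168h of OHT in GCSF, *Zeb2* and *Id2*, which rose, and *Tcf3*, which fell. Each runs from 250 bases before to 50 bases after a RefSeq transcription start (GRCm38.p6), 5′ to 3′ on the minus strand. The *Zeb2* window is chr2:45117393-45117692, the most upstream of 4 annotated starts, the *Id2* window is chr12:25096043-25096342 and the *Tcf3* window is chr10:80433586-80433885. Capitals mark the E-box CANNTG and the purine-rich core GAGGAA (or its complement TTCCTC), which PU.1 sites contain.
Zeb2: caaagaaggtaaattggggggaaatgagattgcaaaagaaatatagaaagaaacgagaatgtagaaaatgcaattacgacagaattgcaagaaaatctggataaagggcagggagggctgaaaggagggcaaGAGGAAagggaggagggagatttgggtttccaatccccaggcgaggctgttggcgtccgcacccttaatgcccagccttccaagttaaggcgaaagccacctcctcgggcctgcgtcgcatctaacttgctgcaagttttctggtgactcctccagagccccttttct
Id2: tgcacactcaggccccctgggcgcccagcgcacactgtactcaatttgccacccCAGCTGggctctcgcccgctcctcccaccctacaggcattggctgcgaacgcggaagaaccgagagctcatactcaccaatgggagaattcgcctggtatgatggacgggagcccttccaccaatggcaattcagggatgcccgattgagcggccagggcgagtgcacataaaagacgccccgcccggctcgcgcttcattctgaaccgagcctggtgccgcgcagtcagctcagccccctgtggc
Tcf3: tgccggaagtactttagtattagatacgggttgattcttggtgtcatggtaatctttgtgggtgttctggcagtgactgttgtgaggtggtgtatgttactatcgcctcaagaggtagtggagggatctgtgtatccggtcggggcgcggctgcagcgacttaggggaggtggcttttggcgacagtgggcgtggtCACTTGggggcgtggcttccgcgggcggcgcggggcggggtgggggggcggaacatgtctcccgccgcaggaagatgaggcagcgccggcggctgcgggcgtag
The *Zeb2* window held no CANNTG and 1 GAGGAA, upstream of the start. GAGGAA was also in the windows of the other 3 *Zeb2* starts, of which the second and the third overlap and share a single copy. The *Id2* window held 1 E-box, CAGCTG, and the *Tcf3* window 1 E-box, CACTTG, both upstream of the start, and neither held GAGGAA or TTCCTC. None of the 3 held CAGGTG or CACCTG, the ZEB form of the E-box. Of the windows not printed, the 3 of *Tcf12* held 4 E-boxes and 1 TTCCTC in all, and that of *Id3* held TTCCTC 3 times and no E-box. Over all 32851 windows of this length, 72.3% held CANNTG on either strand, 20.2% CAGGTG or CACCTG, which are also CANNTG, and 28.3% GAGGAA or TTCCTC. These are matches of letters, and binding was not measured in the files used here.

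Libraries held between 14600246 and 33147945 reads assigned to genes, with a median of 21960878. A count of 3 reads, taken as the floor, corresponds to a normalized count of 1.96 to 5.51, and this covers counting error only. *Spi1*, whose reads also come from the transgene and so do not check the deletion, ran from 4482 to 13387 normalized counts over all libraries. As a check of the cells, marker levels were summed, which does not show single genes that move the other way. The summed level of 10 neutrophil markers was 298400 to 304700 normalized counts in undifferentiated cells and 735300 to 782500 at GCSF-OHT 168h, with 406300 to 456500 at GCSF 0h and 257800 to 290400 at IL3-OHT 168h. Over all time points this summed level ran from 181200 to 419600 in IL3-OHT and from 383400 to 919100 in GCSF-OHT. That of 10 macrophage or monocyte markers was 2717 to 2989 in undifferentiated cells, 868.5 to 1163 at GCSF 0h, 12740 to 13790 at IL3-OHT 168h and 8767 to 9913 at GCSF-OHT 168h, so it was above its start in both conditions. Of other lists, 5 of 8 mast cell or basophil genes, 2 of 7 erythroid, 4 of 6 B cell and 4 of 6 T cell genes stayed at 3 reads or fewer in every library, as did the macrophage genes *C1qa* and *C1qb*. The summed levels of these 4 lists reached at most 331.2, 136.2, 53.2 and 17.7 normalized counts in any library after OHT. The 6 libraries of 120h carry another name prefix than the rest. The IL3-OHT libraries of 96h and of 144h, treated as outliers by the authors, were left out of the fits and are described on their own. Genes were tested with limma on log2(normalized count + 1) (17414 genes, all 8 members among them), and calls needed both a log2 fold change beyond 0.58 in either direction and a Benjamini-Hochberg adjusted p under 0.05. All adjusted p in what follows are from this limma fit. The study describes the replicates as biological, while the labels do not state that they are separate cultures. The p-values measure the spread between these samples within a group, pooled over the groups. Each time point had its own plate, so differences between plates are not in that spread and cannot be told apart from time.

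*Id1*, *Tcf3* and *Zeb2* were the most abundant members when counts were divided by transcript length, and *Zeb1* and *Id3* the least. Per kilobase of its longest coding transcript, the median over time-point means was 1880 normalized counts for *Id1*, 934 for *Tcf3*, 560 for *Zeb2*, 503 for *Id2*, 271 for *Tcf12*, 219 for *Tcf4* and 25 for *Zeb1*. The order was not the same in all groups. In undifferentiated cells the per-kilobase level of *Zeb2* was 715.9 ± 4.91 (SD, n = 3) and that of *Id2* 249.9 ± 25.3 (SD, n = 3), beside 276.3 ± 4.60 (SD, n = 3) for *Tcf4* and 231.1 ± 10.1 (SD, n = 3) for *Tcf12*, so *Id2* did not stand apart from *Tcf4* and *Tcf12* by more than both SDs together. At IL3-OHT 168h *Id2*, at 742.2 ± 8.00 (SD, n = 3) per kilobase, was within the spread of *Tcf3*, at 747.5 ± 71.4 (SD, n = 3), and of *Zeb2*, at 759.8 ± 29.2 (SD, n = 3). At GCSF 0h *Tcf3*, at 1326 ± 20.7 (SD, n = 3) per kilobase, was lower than *Id1*, at 1418 ± 81.6 (SD, n = 3), by less than both SDs together. Dividing by the union of coding-transcript exons instead gave a median of 440 for *Zeb2*, 406 for *Id2*, 219 for *Tcf12* and 119 for *Tcf4*.

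**Figure D1:**
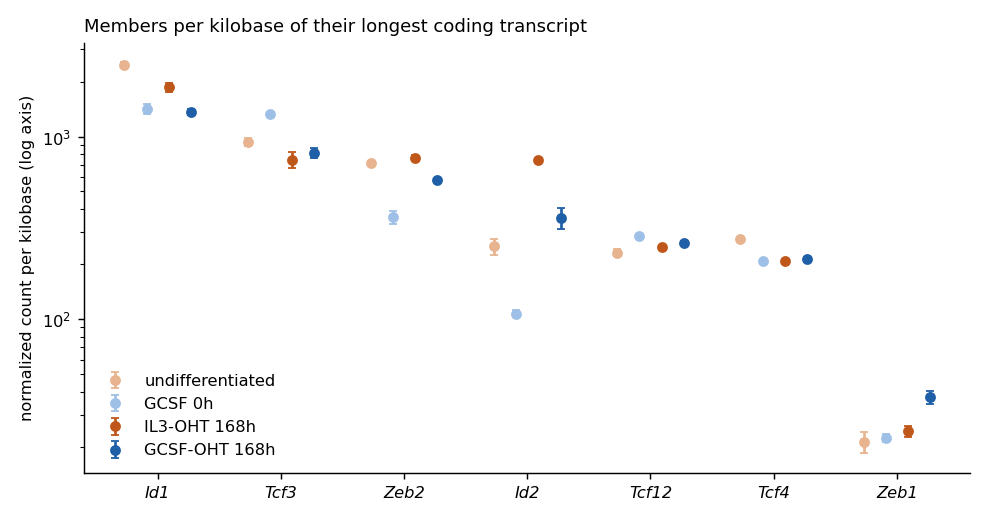
Normalized counts per kilobase of the longest coding transcript (log axis) for 7 members in 4 groups of 3 libraries, as mean and SD. *Id1*, *Tcf3* and *Zeb2* lie highest, *Zeb1* lies lowest at 21.3 to 37.5, and *Id2* moves most between groups, from 107.3 at GCSF 0h to 742.2 at IL3-OHT 168h. *Id3* is left out because it rests on 5 reads or fewer.

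*Zeb2*, *Id1* and *Id2* were lower after the GCSF pre-treatment, and none of the E-proteins was called. These 3 of 8 members were called, all lower, beside 33.7% of all genes called in either direction. Removal of IL3, addition of GCSF and the 48 h of culture came together in the pre-treatment and cannot be told apart. After OHT, 3 members were called at 8h in IL3 (29.7% of all genes) and 2 at 8h in GCSF (9.4% of all genes). At 168h, 1 member was called against undifferentiated cells in IL3 (25.4% of all genes) and 2 in GCSF (39.1% of all genes), and 4 against GCSF 0h (24.8% of all genes). Over the whole course, 5 members passed the F test and the fold-change threshold at 1 time point or more in IL3 (69.7% of all genes) and 4 in GCSF (47.7% of all genes). In bulk RNA, fewer cells of a type and less RNA per cell cannot be told apart. The summed macrophage and neutrophil marker levels given above move with the same groups, the pre-treatment included, and their part in the member values was not tested. The median log2 fold change of the 7 members above the floor was -0.41 in the pre-treatment, beside -0.09 over all genes, and 0.04 for OHT in GCSF at 168h, beside 0 over all genes.

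*Zeb2* fell in the GCSF pre-treatment, to 0.506 of its level in undifferentiated cells, and rose again after OHT. The 3 undifferentiated libraries held 6493, 6520 and 6581 normalized counts, and the GCSF 0h libraries 3056, 3284 and 3586. The groups are far apart, and the log2 fold change was -0.98 (SE 0.0703, adjusted p = 2.63e-25). After 2h of OHT in GCSF the libraries held 5594, 5841 and 6136, and all of them lay above every library of 1h, at 3681, 3762 and 3816. This step was called (log2 fold change 0.64, SE 0.0703, adjusted p = 2.30e-13). At 168h of GCSF-OHT *Zeb2* stood at 5221, 5292 and 5383, above GCSF 0h (log2 fold change 0.68, SE 0.0703, adjusted p = 1.38e-15) and below undifferentiated cells by less than the threshold (log2 fold change -0.30, adjusted p = 8.91e-05). In GCSF-OHT the libraries lay above all those of GCSF 0h at 26 of 27 time points, a count that was not made for all genes.

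In IL3 *Zeb2* had an early high and an early low. The libraries of IL3-OHT 2h held 7927, 8068 and 9718, the highest mean of the 25 time points fitted. They overlapped those of 1h, at 7503, 7936 and 8024. The libraries of 8h held 4380, 4527 and 4671, the lowest mean (log2 fold change -0.53, SE 0.0703, adjusted p = 7.00e-11). Neither 2h nor 8h differed from undifferentiated cells by more than the fold threshold, so *Zeb2* was not called over the IL3 course. The mean was 4985 at 80h, 5096 at 104h and 7781 at 136h. The libraries of 168h held 6769, 6788 and 7240, close to undifferentiated cells (log2 fold change 0.09, SE 0.0703, adjusted p = 0.33).

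*Zeb1*, the paralog of *Zeb2* (ENSMUSG00000024238, plus strand of chromosome 18, 5591860 to 5775467), was the lowest member above the floor. Averaged over the shared time points, *Zeb1* was higher in GCSF-OHT than in IL3-OHT and *Zeb2* lower (log2 differences 0.56 and -0.31). Neither difference was called, and at 8h *Zeb2* was instead higher in GCSF. Undifferentiated libraries held 104.7, 128.8 and 137.1 normalized counts, and GCSF 0h libraries 123.1, 131.2 and 135.1, which overlap. In IL3 it fell from 1h to 2h (log2 fold change -0.73, SE 0.136, adjusted p = 2.55e-06), a call lost without replicate 2 (log2 fold change -0.53), and was below the start at 8h (67.2, 79.2 and 84.7, log2 fold change -0.67, SE 0.136, adjusted p = 8.79e-06). In GCSF the mean was 141.4 at 8h, reached 260.7 ± 9.88 (SD, n = 3) at 128h and stood at 201.9, 213.9 and 236.1 at 168h, above GCSF 0h (log2 fold change 0.74, SE 0.136, adjusted p = 1.33e-06) and above undifferentiated cells (log2 fold change 0.82, SE 0.136, adjusted p = 7.74e-08). At IL3-OHT 168h *Zeb1* was at 131.8, 140.9 and 150.8 (log2 fold change 0.20, adjusted p = 0.23).

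**Figure D2:**
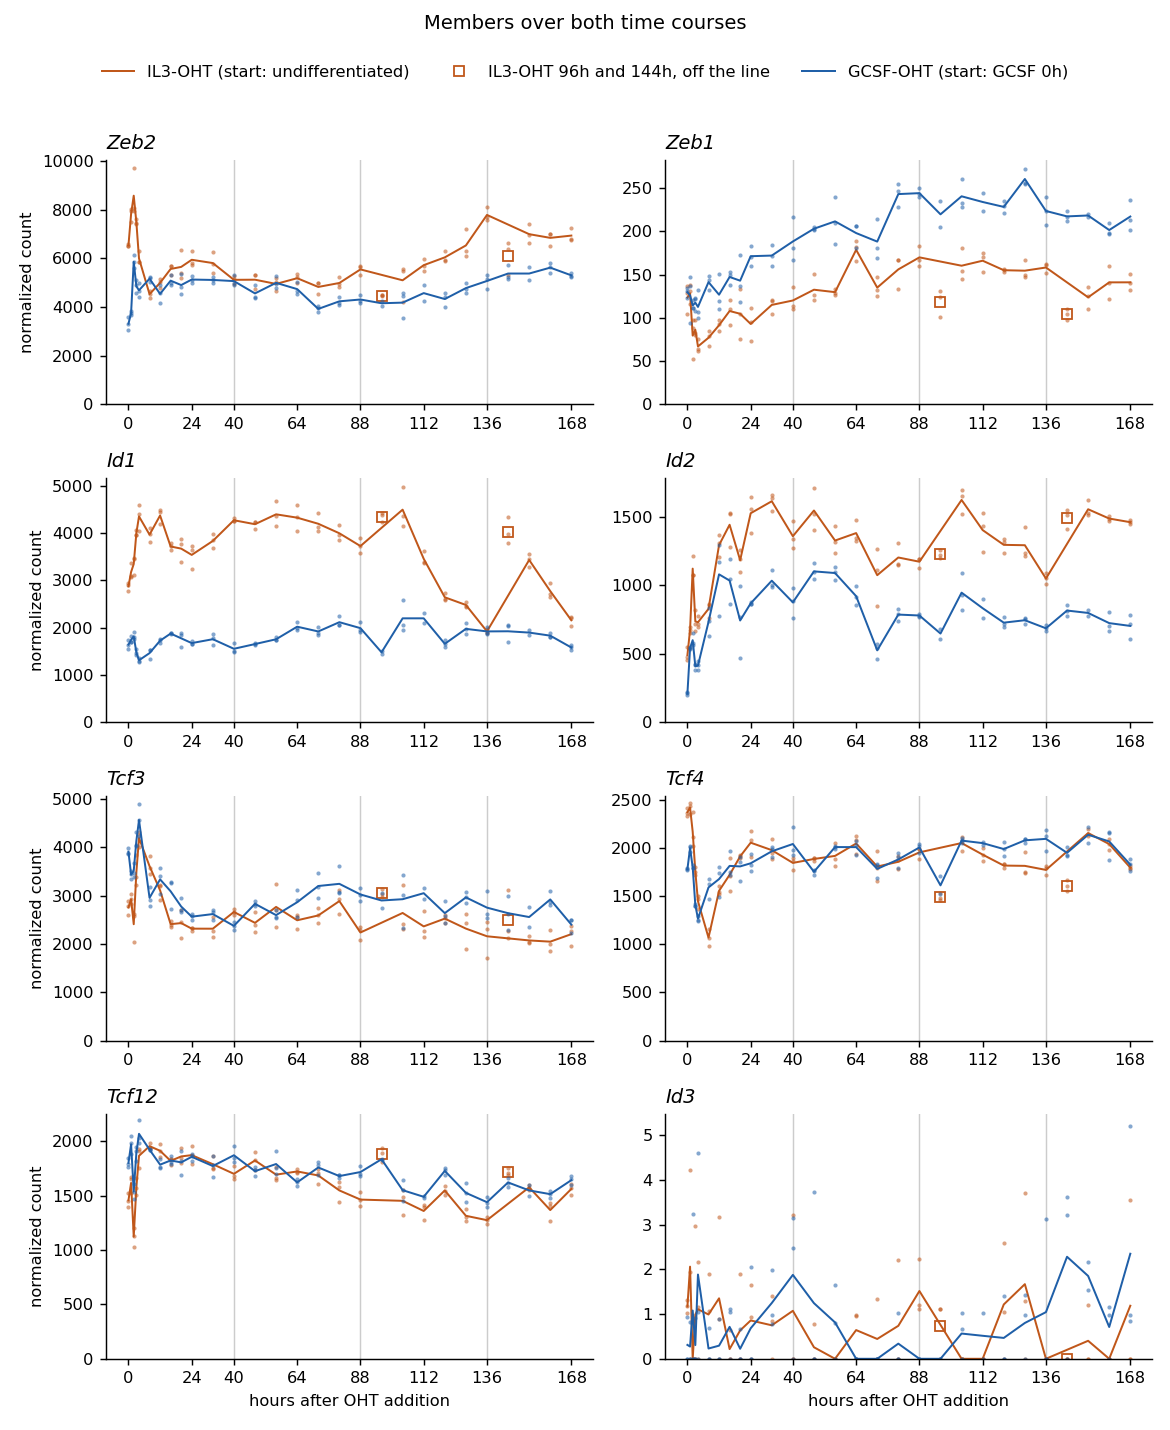
Normalized counts of the 8 members against hours after OHT addition, with a point per library and a line through the means, for IL3-OHT from undifferentiated cells and GCSF-OHT from GCSF 0h. Grey lines mark the 3 additions of fresh OHT, and squares mark the means of IL3-OHT 96h and 144h. *Zeb1* runs higher in GCSF and *Id1* and *Id2* higher in IL3, while *Id3* stays at 5.22 or less.

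*Id1* was lower in GCSF-OHT than in IL3-OHT in every library at 24 of 25 time points. A lack of overlap in 1 direction at 20 or more time points was found for 22.6% of all genes. Undifferentiated libraries held 2782, 2910 and 2939 normalized counts and GCSF 0h libraries 1550, 1647 and 1739, a log2 fold change of -0.81 (SE 0.0626, adjusted p = 7.31e-23). OHT in GCSF left it near that level, at 1522, 1589 and 1641 at 168h (log2 fold change -0.05, SE 0.0626, adjusted p = 0.52), and its means over the GCSF course ran only from 1314 at 4h to 2201 at 112h. In IL3 the libraries lay above all undifferentiated ones at 20 of 25 time points, a count that was not made for all genes. The largest log2 fold change was 0.64, which passed the thresholds over the course (adjusted p = 1.76e-51).

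*Id1*, a target of BMP signalling in many cell types, had a high and a low late in the IL3 course. Its mean, over 3 libraries each, was 4497 ± 435.6 (SD) at 104h, 3458 ± 141.5 at 112h, 2483 ± 53.5 at 128h and 1925 ± 41.3 at 136h. The 3 libraries of 136h held 1891, 1912 and 1971 and lay below all undifferentiated libraries. Fresh OHT and medium were added at 136h, and the libraries of 144h held 3787, 3978 and 4336, those of 152h 3295, 3455 and 3552. The step from 136h to 152h was the only *Id1* step called in either condition (log2 fold change 0.83, SE 0.0626, adjusted p = 4.34e-23). It passes over 144h, which was left out of the fits. In this step 16% of all genes were called, the largest share of any IL3 step. By 168h the libraries were again at 2029, 2211 and 2237, lower than undifferentiated cells by less than the fold threshold (log2 fold change -0.41, SE 0.0626, adjusted p = 6.89e-09). After the renewal at 88h the mean went from 3728 at 88h to 4349 at 96h, and from 40h to 88h it stayed between 3728 and 4398. In GCSF, where the same renewals were made, the mean was 1993 at 88h and 1483 at 96h (2 libraries), and 1924 at 136h and 1927 at 144h. The part of the renewal in these values was not tested.

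*Id2* rose in both conditions and had the largest log2 fold changes of the members, up to 1.72 over the IL3 course and 2.38 over the GCSF course. Undifferentiated libraries held 453.1, 475.0 and 548.3 normalized counts and GCSF 0h libraries 200.5, 213.4 and 219.6, so *Id2* was lower after the pre-treatment (log2 fold change -1.21, SE 0.118, adjusted p = 5.66e-17). A single hour of OHT in GCSF brought it to 538.2, 543.1 and 549.4 (log2 fold change 1.36, SE 0.118, adjusted p = 9.33e-19), and a further rise was called from 4h to 8h (log2 fold change 0.81, SE 0.118, adjusted p = 9.47e-09). It was 733.8 ± 102.5 (SD, n = 3) at 8h and 1103 at its highest mean, at 48h. At GCSF-OHT 168h the libraries were at 605.8, 720.1 and 787.6, above GCSF 0h (log2 fold change 1.73, SE 0.118, adjusted p = 2.16e-26). In IL3 the libraries of 2h held 1073, 1079 and 1216, those of 3h had a mean of 738, and both steps were called, up from 1h to 2h (log2 fold change 0.73, SE 0.118, adjusted p = 7.73e-08) and down from 2h to 3h (log2 fold change -0.61, SE 0.118, adjusted p = 9.90e-06). A further rise was called from 8h to 12h (log2 fold change 0.64, SE 0.118, adjusted p = 3.86e-06). Without replicate 3 neither this rise (0.58) nor the preceding fall (-0.48) was called. At 168h the IL3-OHT libraries held 1446, 1461 and 1477 (log2 fold change 1.57, SE 0.118, adjusted p = 1.61e-23). Every *Id2* library after OHT lay above those of its own start, at 25 of 25 time points in IL3 and 27 of 27 in GCSF. This count was not made for all genes, of which 69.7% were called over the IL3 course and 47.7% over the GCSF course. A dip at GCSF-OHT 72h, to 464.6, 540.5 and 574.0, was called both going in from 64h (log2 fold change -0.81, adjusted p = 1.58e-07) and coming out to 80h (log2 fold change 0.58, adjusted p = 1.17e-04), the latter not called without replicate 1 or replicate 3 (0.57 and 0.54).

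*Id3*, the remaining Id gene measured, had 0 to 5 reads in every library and is best described as at or under the floor. Its highest value was 5.22 normalized counts. It passed the filter on low values through 1 library, no fold change is given for it, and it was called in none of the comparisons.

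*Tcf3*, which gives the E12 and E47 proteins, was at 2607, 2781 and 2888 normalized counts in undifferentiated cells and at 3862, 3895 and 3980 at GCSF 0h, a difference just under the fold threshold (log2 fold change 0.51, SE 0.102, adjusted p = 7.89e-06). It was highest at 4h in both conditions, at 4011, 4251 and 4324 in IL3 and at 4228, 4571 and 4906 in GCSF. In IL3 the 4h value passed the threshold over the course (largest log2 fold change 0.61, adjusted p = 1.91e-21). In GCSF it then fell from 4h to 8h (log2 fold change -0.63, SE 0.102, adjusted p = 2.36e-07), to 2783, 2913 and 3173. At GCSF-OHT 168h it was at 2230, 2489 and 2490, below GCSF 0h (log2 fold change -0.70, SE 0.102, adjusted p = 1.66e-09), and at IL3-OHT 168h at 1967, 2280 and 2368 (log2 fold change -0.33 against undifferentiated cells, adjusted p = 0.0045).

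*Tcf4* (ENSMUSG00000053477, plus strand of chromosome 18, 69343356 to 69689079) had a transient low in IL3. It went from 2335, 2362 and 2413 normalized counts in undifferentiated cells to 984.4, 1065 and 1157 at IL3-OHT 8h, the largest change of any E-protein over either course (log2 fold change -1.15, SE 0.0568, adjusted p = 1.11e-37). By 24h the mean was 2053, and at 168h the libraries held 1784, 1791 and 1809 (log2 fold change -0.40, SE 0.0568, adjusted p = 8.63e-10). In GCSF the low came at 4h, at 1243, 1255 and 1296 against 1770, 1781 and 1787 at GCSF 0h, and at 8h the log2 fold change was -0.17 (SE 0.0568, adjusted p = 0.016). *Tcf12*, a partner of Tcf3 in lymphocyte precursors, had means between 1123 and 2068 over both courses and was called in none of the comparisons. Its lowest mean, at IL3-OHT 2h (1031, 1132 and 1205), and its highest, at GCSF-OHT 4h (1986, 2026 and 2190), were both early, and the log2 fold change at IL3-OHT 8h was 0.43 (SE 0.0495, adjusted p = 3.63e-13).

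**Figure D3:**
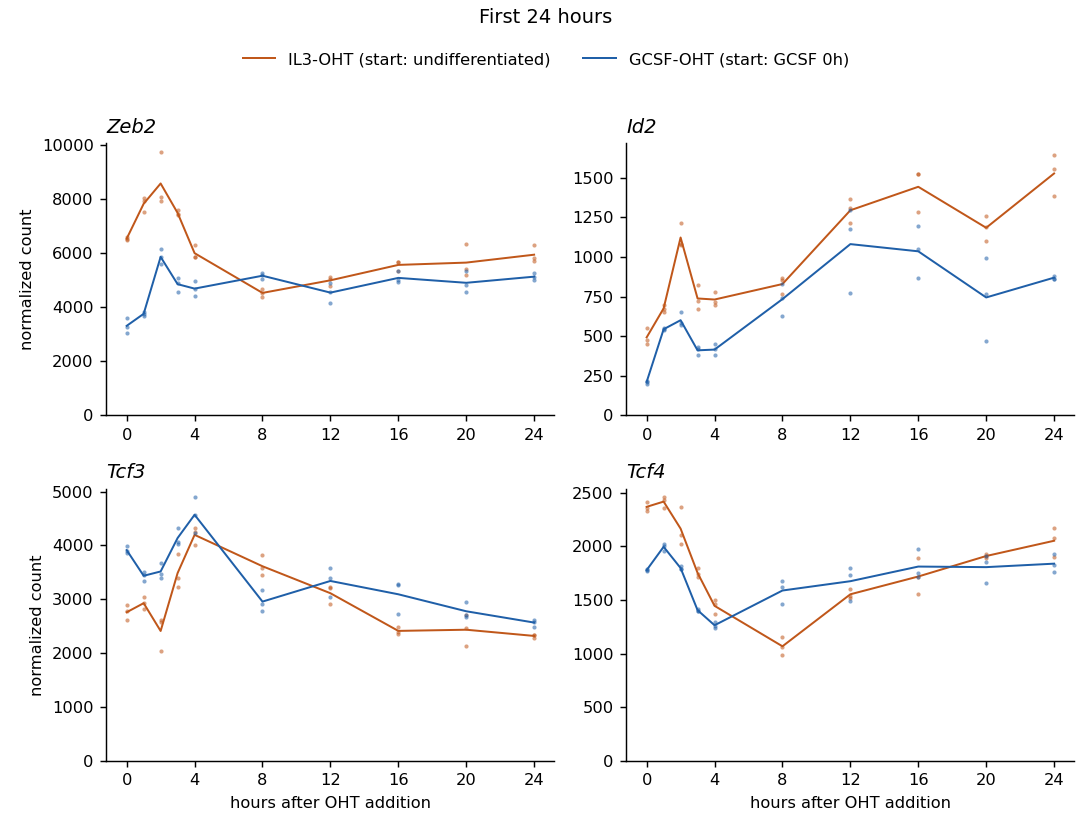
Normalized counts of *Zeb2*, *Id2*, *Tcf3* and *Tcf4* over the first 24 hours of OHT, with a point per library and a line through the means. *Zeb2* peaks at 2h and *Tcf3* at 4h in both conditions, *Id2* has a first peak at 2h, and *Tcf4* is lowest at 8h in IL3 and at 4h in GCSF.

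The effect of 8h of OHT depended on the condition for most members. The interaction compares the change from GCSF 0h to GCSF-OHT 8h with that from undifferentiated cells to IL3-OHT 8h, and 6 of 8 members were called, beside 27.4% of all genes. *Zeb2* went opposite ways, with a log2 fold change of -0.53 in IL3 and 0.64 in GCSF (difference 1.17, SE 0.0994, adjusted p = 4.99e-20). *Tcf3* did the reverse, at 0.39 in IL3 and -0.41 in GCSF (difference -0.80, SE 0.144, adjusted p = 1.16e-06). The *Id2* change was larger in GCSF by 1.03 (SE 0.167, adjusted p = 6.78e-08), the *Tcf4* change lower in IL3 by 0.99 (SE 0.0803, adjusted p = 4.75e-21), and *Zeb1* and *Id1* differed by 0.79 and -0.63. At 168h only *Zeb2* was called, 1 of 8 members beside 25.7% of all genes (difference 0.60, SE 0.0994, adjusted p = 1.58e-07). This call rests near the threshold: edgeR gave 0.57 and the fit without replicate 3 gave 0.52, neither of them called. Without replicate 3 *Zeb1* was called in its place (difference 0.63, adjusted p = 0.0217, beside 0.54 with all replicates). At 168h the *Id2* changes differed by 0.15 (SE 0.167, adjusted p = 0.49). The starting levels of the conditions differ, so a difference in change is not a difference in level. At 8h, for instance, *Zeb2* stood at 4526 in IL3 and 5161 in GCSF.

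**Figure D4:**
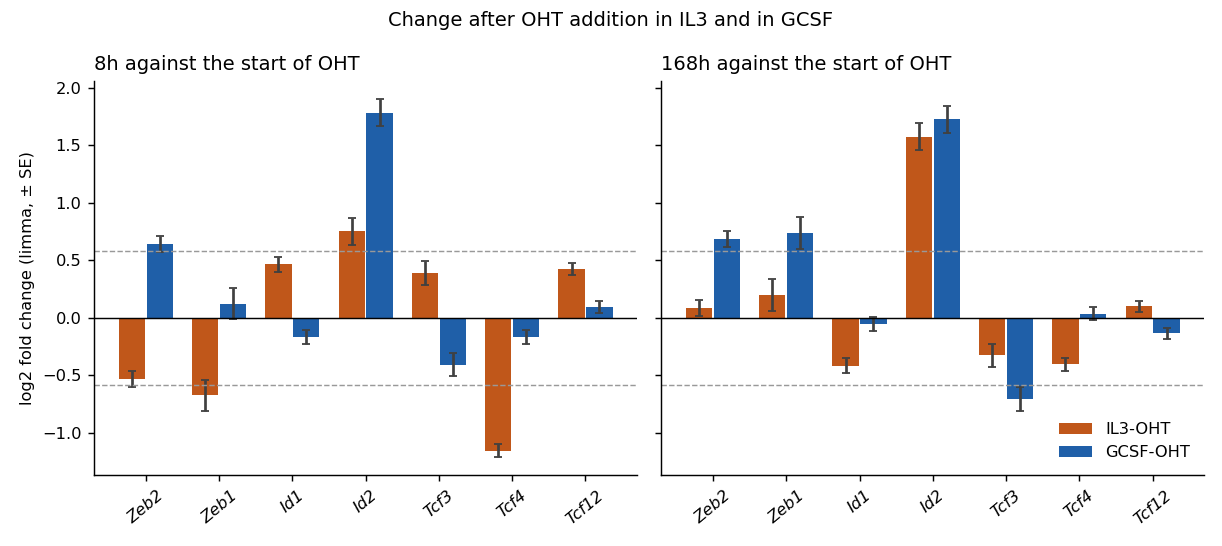
Log2 fold change (bars, SE from limma) of 7 members at 8h and at 168h against the start of OHT in each condition, with dashed lines at the threshold of 0.58. At 8h *Zeb2* and *Tcf3* have opposite signs in IL3 and GCSF, and at 168h *Id2* is up by 1.57 and 1.73.

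Over the 25 shared time points, GCSF-OHT cells had less *Id1* and *Id2* than IL3-OHT cells, and more *Zeb1* by an amount just under the threshold. The mean log2 difference was -0.99 for *Id1* (SE 0.0126, adjusted p = 2.26e-98) and -0.68 for *Id2* (SE 0.0239, adjusted p = 9.61e-53), the 2 of 8 members called beside 24.5% of all genes. *Zeb1* differed by 0.56 (SE 0.0274, adjusted p = 4.43e-39) and *Zeb2* by -0.31 (SE 0.0142, adjusted p = 2.40e-41). *Tcf3* and *Tcf12* differed by 0.21 and 0.10, and *Tcf4* by 0.01 (adjusted p = 0.373), a difference whose sign turned with upper-quartile scaling. The *Tcf4* mean covers differences of both signs, -0.06 over 1h to 24h and 0.05 over 32h to 168h. All GCSF-OHT libraries of *Tcf4* lay below all IL3-OHT ones at 5 time points and above them at 6, those of *Zeb2* at 16 and 1. Library by library, all GCSF-OHT values lay below all IL3-OHT values at 24 of 25 time points for *Id1* and 23 of 25 for *Id2*, and above them at 22 of 25 for *Zeb1*. Such a lack of overlap in 1 direction at 20 or more time points was found for these 3 of 8 members and for 22.6% of all genes. *Id1* and *Id2* were also the members called over 1h to 24h alone (24.3% of all genes), over 32h to 168h, when cells were detached with trypsin (27.8% of all genes), without 120h (24.2% of all genes) and at 120h alone (27.8% of all genes).

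Between consecutive time points 5 of 200 member steps were called in IL3, beside 3.65% over all genes and steps, and 6 in GCSF over 27 steps of the 8 members, beside 1.81%. *Id2* accounted for 3 of the 5 and 4 of the 6. The others were *Zeb1* and *Id1* in IL3 and *Zeb2* and *Tcf3* in GCSF, all named above. In single steps the share of all genes called ran from 0.0976% to 16% in IL3 and from 0.0115% to 6.05% in GCSF. It was 15.2% from 1h to 2h in IL3, where *Id2* and *Zeb1* were called. No E-protein step was called in IL3, where *Tcf4* went from 1446 at 4h to 1068 at 8h. No member step was called after 80h apart from *Id1* between 136h and 152h in IL3.

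IL3-OHT 96h and 144h, each 8 h after a renewal of OHT, were compared with the mean of their neighbours. At 96h no member was called, beside 17.5% of all genes. At an unadjusted p under 0.05 limma, edgeR and DESeq2 each had 5 of the 8 members, and each called 0. *Tcf4*, at 1461, 1480 and 1531 normalized counts, lay below every library of 88h and 104h (log2 fold change -0.42, SE 0.0487, adjusted p = 2.40e-13), and *Tcf12*, at 1810, 1891 and 1936, above them (log2 fold change 0.37, SE 0.0425, adjusted p = 3.09e-13). At 144h *Id1* was called, 1 of 8 members beside 15.4% of all genes (log2 fold change 0.65, SE 0.0542, adjusted p = 1.49e-20), and *Tcf4* and *Tcf12* had log2 fold changes of -0.28 and 0.28. *Zeb1* and *Zeb2* were lower than their neighbours at both. The log2 fold changes at 96h and 144h were -0.48 and -0.42 for *Zeb1*, and -0.24 and -0.28 for *Zeb2*.

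The level of *Id2* relative to *Tcf3* moved toward Id2 in both conditions. The log2 difference of *Id2* minus *Tcf3* normalized counts, which are not corrected for length and so are read only as changes, was -2.49 ± 0.13 (SD, n = 3) in undifferentiated cells and -4.21 ± 0.086 (SD, n = 3) at GCSF 0h. It reached -0.59 ± 0.14 (SD, n = 3) by the end of the IL3 course. By the end of the GCSF course it was -1.78 ± 0.27 (SD, n = 3). The path was not even: it was -1.10 ± 0.305 at 2h and back at -2.52 ± 0.074 at 4h in IL3, where *Id2* and *Tcf3* have their early peaks (SD, n = 3 each). The mean of the Id genes minus the mean of the E-proteins, which weighs the few reads of *Id3* as much as the other genes, went from -3.87 ± 0.023 to -3.40 ± 0.41 in IL3 and from -4.94 ± 0.18 at GCSF 0h to -3.72 ± 0.37 in GCSF (SD, n = 3 each). With *Id1* and *Id2* alone the change to 168h was 0.79 in IL3, against 0.47 with *Id3*. The change with *Id3* included was 0.24 without replicate 1. *Zeb2* minus *Zeb1* went from 5.72 ± 0.20 in undifferentiated cells to 6.78 ± 0.40 at IL3-OHT 2h and 5.61 ± 0.11 at IL3-OHT 168h, and from 4.66 ± 0.15 at GCSF 0h to 4.60 ± 0.14 at GCSF-OHT 168h (SD, n = 3 each). These are descriptions and were not tested.

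**Figure D5:**
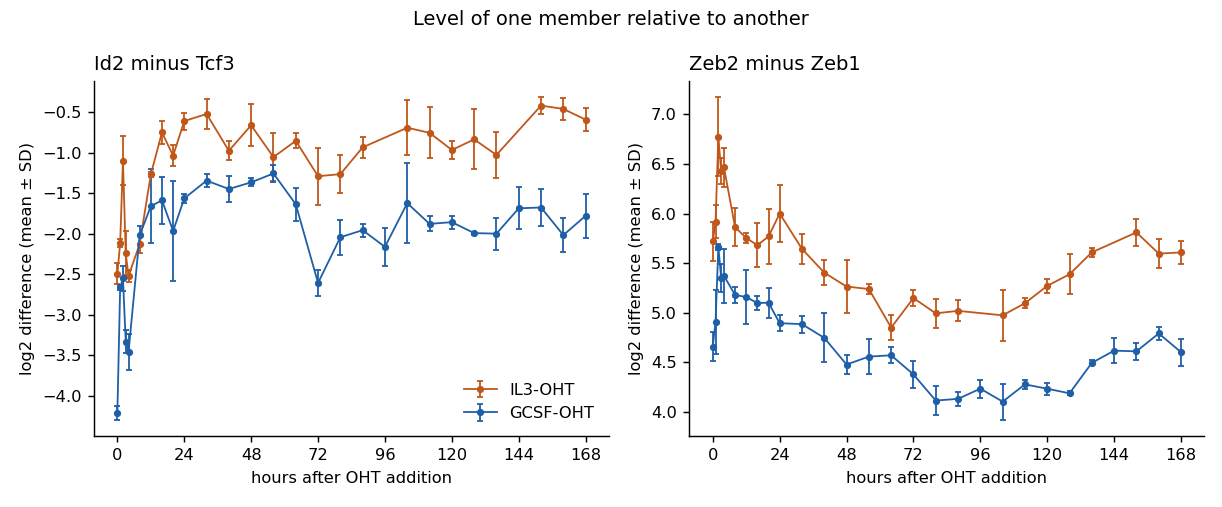
Log2 difference of *Id2* minus *Tcf3* and of *Zeb2* minus *Zeb1* (mean and SD over libraries) against hours after OHT addition. IL3-OHT 96h and 144h are left out. *Id2* minus *Tcf3* starts at -2.49 in IL3 and -4.21 in GCSF and ends at -0.59 and -1.78, and the mean of *Zeb2* minus *Zeb1* is lower in GCSF at all 25 shared time points.

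Over the 54 time-point means of both conditions, 10647 genes with a mean of at least 50 normalized counts were ranked by Pearson's r with each member, as a description of points that share libraries and neighbouring times. The genes most like *Id1* were *Socs1* (r = 0.915), a cytokine signalling inhibitor, *Il1rn* (r = 0.906), the interleukin-1 receptor antagonist, followed by *Ptpn9*. Those most like *Id2* were *Myof*, *Gcnt1* and *Adm* (r = 0.885 to 0.876). *Zeb1* was most like *Hipk2*, *Cdkn2d*, a cyclin-dependent kinase inhibitor, and *Dlg4* (r = 0.952 to 0.941), and *Zeb2* most like *Klhl28*, *Cast*, the calpain inhibitor, and *Serinc1* (r = 0.899 to 0.873). *Tcf3* was most like *Zc3h18*, *Bcl7c* and *Scap* (r = 0.872 to 0.870) and *Tcf12* most like *Pycrl*, *Trim37* and *Atm* (r = 0.859 to 0.854). *Tcf4* had the loosest neighbours, *4932438A13Rik*, *Pax8* and *BC005624* (r = 0.798 to 0.752). Among the members themselves r was highest for *Id1* with *Id2* (0.596) and lowest for *Id2* with *Tcf3* (-0.715).

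Lists of related genes were counted in the same comparisons. Of 15 HLH partners and complex members, 13 were tested, and in the pre-treatment 3 were higher and 3 lower, beside 33.7% of all genes called. *Bhlhe40*, an HLH repressor of another class, fell from 7526, 7873 and 8001 normalized counts to 965.5, 981.9 and 992.5 (log2 fold change -2.99, SE 0.131, adjusted p = 2.74e-42) and rose after OHT in GCSF, to 3295, 4367 and 4518 at 168h (log2 fold change 2.04, adjusted p = 2.94e-28). *Lyl1*, an E-protein partner of progenitor cells, rose from 153.8 ± 13.5 (SD, n = 3) to 589.2, 660.7 and 699.5 at IL3-OHT 168h (log2 fold change 2.07, SE 0.0911, adjusted p = 5.84e-42) and to 1763, 1830 and 1845 at GCSF-OHT 168h (log2 fold change 3.55, SE 0.0911, adjusted p = 4.55e-65). At 168h against undifferentiated cells this list had 3 higher and 5 lower in IL3 (25.4% of all genes called) and 4 higher and 5 lower in GCSF (39.1%). For OHT in GCSF it had 4 higher and 2 lower (24.8%), and for GCSF-OHT against IL3-OHT 3 higher and 2 lower (24.5%).

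BMP and TGF-beta signalling, which acts on Id genes through SMAD proteins, had 22 of 30 genes tested. In the pre-treatment 1 was higher and 11 lower (median log2 fold change -0.57, beside -0.09 over all genes, of which 33.7% were called), and *Tgif1*, a SMAD corepressor, went from 1950, 1985 and 2048 to 557.8, 581.5 and 603.5 (log2 fold change -1.78, SE 0.0723, adjusted p = 2.50e-45). At 168h against undifferentiated cells 4 were higher and 6 lower in IL3 (25.4% of all genes called) and 1 higher and 8 lower in GCSF (39.1%). *Smad6*, an inhibitory SMAD, rose from 73.6, 85.1 and 92.2 to 229.6, 251.7 and 333.7 in IL3 (log2 fold change 1.68, SE 0.171, adjusted p = 1.04e-15). For OHT in GCSF 5 were higher and 2 lower (24.8% of all genes called), *Tgfbr3* the most changed (log2 fold change -1.33, adjusted p = 8.07e-32), and GCSF-OHT against IL3-OHT gave 0 higher and 4 lower (24.5%).

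Of the ZEB corepressors and Snail family, 9 of 12 genes were tested, and in the pre-treatment 1 was higher and 2 lower (33.7% of all genes called). In IL3 and in GCSF at 168h against undifferentiated cells, and for OHT in GCSF, 0 were higher and 2 lower (25.4%, 39.1% and 24.8% of all genes called). *Snai1*, a zinc-finger repressor of the same E-boxes, went from 95.7, 101.3 and 125.6 normalized counts in undifferentiated cells to 3.91, 4.28 and 7.87 at GCSF-OHT 168h (log2 fold change -4.14, SE 0.385, adjusted p = 4.15e-18) and to 31.1, 33.9 and 39.2 at IL3-OHT 168h (log2 fold change -1.60, adjusted p = 2.02e-04). The lowest of its GCSF-OHT 168h libraries is at the floor, so the size of that fold depends on the pseudocount. *Snai3*, of the same family, fell with OHT in GCSF, from 310.1 ± 28.9 to 155.7 ± 30.5 (SD, n = 3 each, log2 fold change -1.005, adjusted p = 6.44e-13). Only 5 of 12 epithelial genes repressed by ZEB passed the filter on low values, with 1 lower at IL3-OHT 168h (25.4% of all genes called) and 2 lower at GCSF-OHT 168h (39.1%). In the pre-treatment limma called 0 of the 5, with 1 at an unadjusted p under 0.05, edgeR called 0, with 0 at that p, and DESeq2 called 0, with 1 at that p. Of 16 E-protein targets 10 were tested. In the pre-treatment 3 were higher and 6 lower (33.7% of all genes called), among them the lymphoid receptor gene *Il7r*, from 53.2, 61.5 and 69.6 to 0.924, 0.932 and 7.08 (log2 fold change -4.32, SE 0.46, adjusted p = 5.30e-15), where 2 of the 3 later libraries are under the floor and the fold depends on the pseudocount. At 168h against undifferentiated cells 1 was higher and 2 lower in IL3 (25.4% of all genes called) and 3 higher and 5 lower in GCSF (39.1%). *Socs3*, a feedback inhibitor of cytokine signalling, fell at IL3-OHT 168h to 7475, 7657 and 7762 (log2 fold change -1.16, adjusted p = 1.61e-26), and *Socs1*, of the same family, fell at GCSF-OHT 168h from 499.9, 509.4 and 543.0 to 36.5, 36.8 and 38.4 (log2 fold change -3.76, adjusted p = 6.14e-40). For OHT in GCSF limma called 0 of the 10, with 2 at an unadjusted p under 0.05, and edgeR and DESeq2 also called 0, each with 2 at that p.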

How the data were processed

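The deposited table holds a normalized signal per gene, that is, counts that the authors divided by DESeq2 size factors after Salmon quantification on GRCm38 (versions and strand are not given in the sources used here). Dividing by the value of 1 read gave whole reads for 100% of the nonzero values, within a relative tolerance of 1e-09. Groups came from the labels. Genes at 5 or more in at least 1 library were tested with limma 3.58.1 (trend, R 4.3.3) on log2(normalized count + 1). Because of the added 1, a fold change understates the change of low genes. The 159 libraries in 54 groups were in a single fit without a replicate block. edgeR and DESeq2 on the recovered reads, other pseudocounts, filters and scalings, a replicate block and leaving out each replicate were alternatives, and the scripts were tested on simulated data. The members and gene lists were chosen with earlier results of these data known. Named were the 8 members, the 3 genes most like each by Pearson r over time-point means, the called gene of each list with the largest absolute log2 fold change in the pre-treatment and each 168h comparison (mean of at least 50 in 1 of the groups), and *Spi1*. Depth was 14600246 to 33147945 reads.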

Additional observations from a re-analysis of the deposited data

Results flagged for a closer look

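The change after OHT differed between the conditions, by limma's interaction term, for 6 members at 8h and 1 at 168h. At 8h the GCSF log2 fold change minus the IL3 one was 1.17 for *Zeb2*, 0.79 for *Zeb1*, -0.63 for *Id1*, 1.03 for *Id2*, -0.80 for *Tcf3* and 0.99 for *Tcf4*. At 168h it was 0.60 for *Zeb2*. Cytokine, pre-treatment and OHT dose cannot be told apart in these differences.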

How the results depend on the processing

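The counts of members called in each comparison stayed within 1.5 times under other pseudocounts, filters, scalings, edgeR, DESeq2 and the replicate block, except that edgeR called 0 members in the interaction at 168h, where limma called *Zeb2* (edgeR log2 0.57, adjusted p = 3.69e-07, under the fold threshold). Leaving out a replicate gave 4 to 7 called IL3 steps, 7 to 8 GCSF steps, 2 to 3 members at the GCSF 168h endpoint, 4 to 5 for OHT in GCSF, 3 in the pre-treatment and at IL3 8h, 1 at the IL3 168h endpoint, 2 at GCSF 8h and for GCSF against IL3, 6 and 1 in the interactions (at 168h the 1 was *Zeb1*, not *Zeb2*, without replicate 3), 5 and 4 over the courses, and 1 at 96h and 144h. The lists together gave 26 to 29, 18 to 25, 28 to 30, 14 to 16 and 16 to 19 called genes. The mean Id minus E-protein change at 168h was 0.238 to 0.613 in IL3 and 0.964 to 1.45 in GCSF, and 0.788 in IL3 with *Id1* and *Id2* only, an alternative chosen after seeing the data. Changes that were not called turned sign for *Zeb1* in the pre-treatment (-0.0428 to 0.196 when leaving out a replicate) and for *Tcf4* in GCSF against IL3 (-0.0332 with upper-quartile scaling, -0.0027 to 0.0221 when leaving out a replicate). The cause was not tested. Without replicate 3 *Id2* was also called at the GCSF 168h endpoint (log2 0.70). The *Id2* steps from 2h to 3h and 8h to 12h in IL3 lost their call without replicate 3, the step from 72h to 80h in GCSF without replicate 1 or 3, and the *Zeb1* step from 1h to 2h in IL3 without replicate 2.

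Same-numbered samples correlated at -0.216 to 0.16 in their deviations, so the numbers did not pair them. With the replicate block, 3 members were called in the pre-treatment and 4 for OHT in GCSF, and no count of members changed. Depth limits *Id3*, which had 5 reads or fewer.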
